A study of Mus musculus with 9 samples.

Results

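The comparison described here is that of livers of mice fed a high-fat diet and then injected with recombinant human IgG1 (HFD + IgG1) with livers of mice on the normal diet. Its members are 6 of the 9 RNA-seq libraries of the series, chosen by their titles: HFD + IgG1 replicates 5, 6 and 7 and normal diet replicates 4, 5 and 6. All 9 mice were labelled male, ApoE-/- and of the C57BL/6 background, controls included, with 1 library per liver. By their reads, 3 libraries went against the label for sex or genotype. The HFD + IgG1 mice ate a diet of about 4700 kcal/kg, in which fat gave 41% of the calories, carbohydrate 43% and protein 17%, for 20 weeks from 4 weeks of age, and then chow for 1 week. They received 3 mg of the antibody into the peritoneum at 25, 26 and 27 weeks of age and were killed at 29 weeks. The series has 3 further libraries, HFD + PBS replicates 3, 4 and 6, from mice fed alike and injected with PBS. These served to estimate the spread and are set beside the antibody group. The target of the antibody, the diet during the weeks of injection, and the age at death and any injections of the normal diet mice are not stated in the labels or the design text, so the diet, the antibody and such differences cannot be told apart. Each group's 3 livers were chosen by Oil Red O staining and triglyceride level.

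ApoE is the ligand by which the liver clears remnant lipoproteins, and mice without it carry very high plasma cholesterol. Hepatocytes make cholesterol through the mevalonate pathway under the transcription factor SREBP-2, and make fatty acids under SREBP-1c, LXR and ChREBP, which respond to insulin, sterols and glucose. In fasting the nuclear receptor PPAR-alpha instead turns on the burning of fatty acids in mitochondria and peroxisomes and the making of ketone bodies.

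The libraries held 16215194 to 18538463 counts. Apoe itself was at 16832, 74.3 and 99.9 CPM (counts scaled to the library total) in HFD + IgG1 replicates 5, 6 and 7 against 13.7, 63.5 and 47.1 in normal diet replicates 4, 5 and 6, the order in which values are given throughout, so the library labelled HFD + IgG1 replicate 5 went against its genotype label. Its fitted log2 fold change, 7.10 with an SE of 2.27 (edgeR adjusted p = 0.611), was 1.51 without that library and normal diet replicate 5. The library labelled normal diet replicate 5 held 17065 counts of Xist, the RNA of the inactive X chromosome of female cells, and 0 counts over 4 Y-linked genes, where the other 5 libraries of the comparison held 2837 to 3385 Y-linked counts. The library labelled HFD + PBS replicate 6 likewise held 10970 counts of Xist and 0 over the Y-linked genes. The treatment label reads IgG1 for HFD + IgG1 replicate 5 and IgG2 and IgG3 for replicates 6 and 7, all of which share a group by title and by the text of the design. List medians are therefore given with and without replicates 5 of both groups. Differences between HFD + IgG1 and HFD + PBS were also computed without HFD + PBS replicate 6, an alternative chosen after the data were seen. HFD + IgG1 replicates 5 and 7 were close to each other and replicate 6 stood apart: over genes with a mean of at least 100 counts, chi-square per degree of freedom was 79.5 between replicates 5 and 7, 288 between 5 and 6, 229 between 6 and 7, and 43 between HFD + IgG1 replicate 6 and HFD + PBS replicate 6. Hepatocyte markers differed by a median log2 fold change of 0.29 over 12 tested genes (0.16 without replicates 5). With 1 library left out it ran from 0.10 (without HFD + IgG1 replicate 7) to 0.48 (without HFD + IgG1 replicate 6). Marker genes of skeletal muscle summed to at most 2.12 CPM in any library, with Myh1, Myh2, Myh4, Ckm and Mb at 0 in all, and those of pancreatic acinar cells to 3.97 to 21.8 CPM, with 8 of 12 at 0 in all.

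After the antibody, genes of cholesterol synthesis stood above the normal diet level, with a median log2 fold change of 1.33 over 20 genes, and so did the lipogenic genes Scd1, Fasn and Srebf1 and the glycogen gene Ppp1r3b. Genes of PPAR-alpha and ketogenesis stood below it (-1.27 over 16), as did those of peroxisomal and microsomal fatty acid oxidation (-0.80 over 18). The median over all 14763 genes tested was 0, with 50.4% positive. Markers of neutrophils and of dividing cells, whose medians were high in HFD + PBS, were low in 2 of the 3 antibody livers.

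No gene passed edgeR's quasi-likelihood test at an adjusted p of 0.05 (0 of 14763, 0%), and the lowest adjusted p was 0.158. At an unadjusted p under 0.05 there were 566 higher genes (3.83%) and 474 lower genes (3.21%), 1040 in all. DESeq2 called 60 genes higher (0.451% of the 13311 it gave an adjusted p) and 51 lower (0.383%), and limma-voom called 0. All 3 HFD + IgG1 values lay above all 3 normal diet values in 818 genes (5.54%) and below them in 946 (6.41%). Counts of list members below are to be read against these percentages. Without HFD + IgG1 replicate 6, edgeR called 6 genes: Ppp1r3b, Cyp4f14, Srebf1, Fyb, Nceh1 and Mvd. These names, like those of other genes outside the naming rule, were chosen after their values were seen.

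In no other list did as many members lie above the normal diet group as in cholesterol synthesis. All 20 tested members had a positive log2 fold change, 18 lay above the normal diet values in every library, 18 had an unadjusted p under 0.05 and 11 were called by DESeq2. The list stood at 1.67, 1.48 and 1.01 (mean log2 CPM minus the normal diet mean) in the antibody livers and at -0.07, 0.23 and -0.16 in the controls, so the groups did not overlap. Mvd, mevalonate diphosphate decarboxylase (ENSMUSG00000006517, chromosome 8, 122433601 to 122443422, mm10), had the smallest p of all genes. It was at 42.4, 31.1 and 45.4 CPM in HFD + IgG1 against 7.14, 6.79 and 4.44 in normal diet, a log2 fold change of 2.69 with an SE of 0.33 (edgeR adjusted p = 0.158, DESeq2 adjusted p = 2.87e-11). Fdps, farnesyl diphosphate synthase (ENSMUSG00000059743, chromosome 3, 89093588 to 89101959), was at 9.92, 10.4 and 7.25 CPM in HFD + IgG1 against 0.794, 1.22 and 1.08 in normal diet, a log2 fold change of 3.14 with an SE of 0.43 (edgeR adjusted p = 0.194, DESeq2 adjusted p = 2.13e-08). Every antibody liver lay above every control liver in both genes, by more than the spread within either group.

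Earlier in the pathway, Pmvk, phosphomevalonate kinase (ENSMUSG00000027952, chromosome 3, 89454541 to 89469013), was at 40, 34.6 and 26.4 CPM in HFD + IgG1 against 14.3, 13.4 and 15.6 in normal diet, a log2 fold change of 1.22 with an SE of 0.20 (edgeR adjusted p = 0.253, DESeq2 adjusted p = 0.00013). Hmgcs1, which makes HMG-CoA, differed by 1.46 (SE 0.48), and DESeq2 did not call it (adjusted p = 0.0972). Idi1, the isomerase of isopentenyl diphosphate, was at 193, 192 and 90 CPM in HFD + IgG1 against 42, 61.7 and 29.5 in normal diet, with HFD + IgG1 replicate 7 the lowest of the 3 and still above the highest control. Of the sterol branch, Sqle, squalene epoxidase, was at 171, 176 and 107 CPM in HFD + IgG1 against 41.5, 58.1 and 33.1 in normal diet, a log2 fold change of 1.77 with an SE of 0.39 (edgeR adjusted p = 0.426, DESeq2 adjusted p = 0.00212). Lss, lanosterol synthase (ENSMUSG00000033105, chromosome 10, 76531588 to 76557138), was at 109, 99.6 and 62.6 CPM in HFD + IgG1 against 26, 27.8 and 18.9 in normal diet, a log2 fold change of 1.90 with an SE of 0.36 (edgeR adjusted p = 0.387, DESeq2 adjusted p = 0.000152). Hsd17b7 was the member nearest to 0, at 0.12 (SE 0.27), with overlapping groups. Sc5d, lathosterol oxidase, was at 601, 285 and 372 CPM in HFD + IgG1 against 176, 255 and 199 in normal diet, with 0.99 in the antibody group and 0.06 in HFD + PBS, both against normal diet (edgeR unadjusted p of the difference between the diet groups = 0.0159, and 0.0615 without HFD + PBS replicate 6). That difference was 0.94, and 0.35 without the 3 libraries that went against their labels (edgeR unadjusted p = 0.281).

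**Figure D1:**
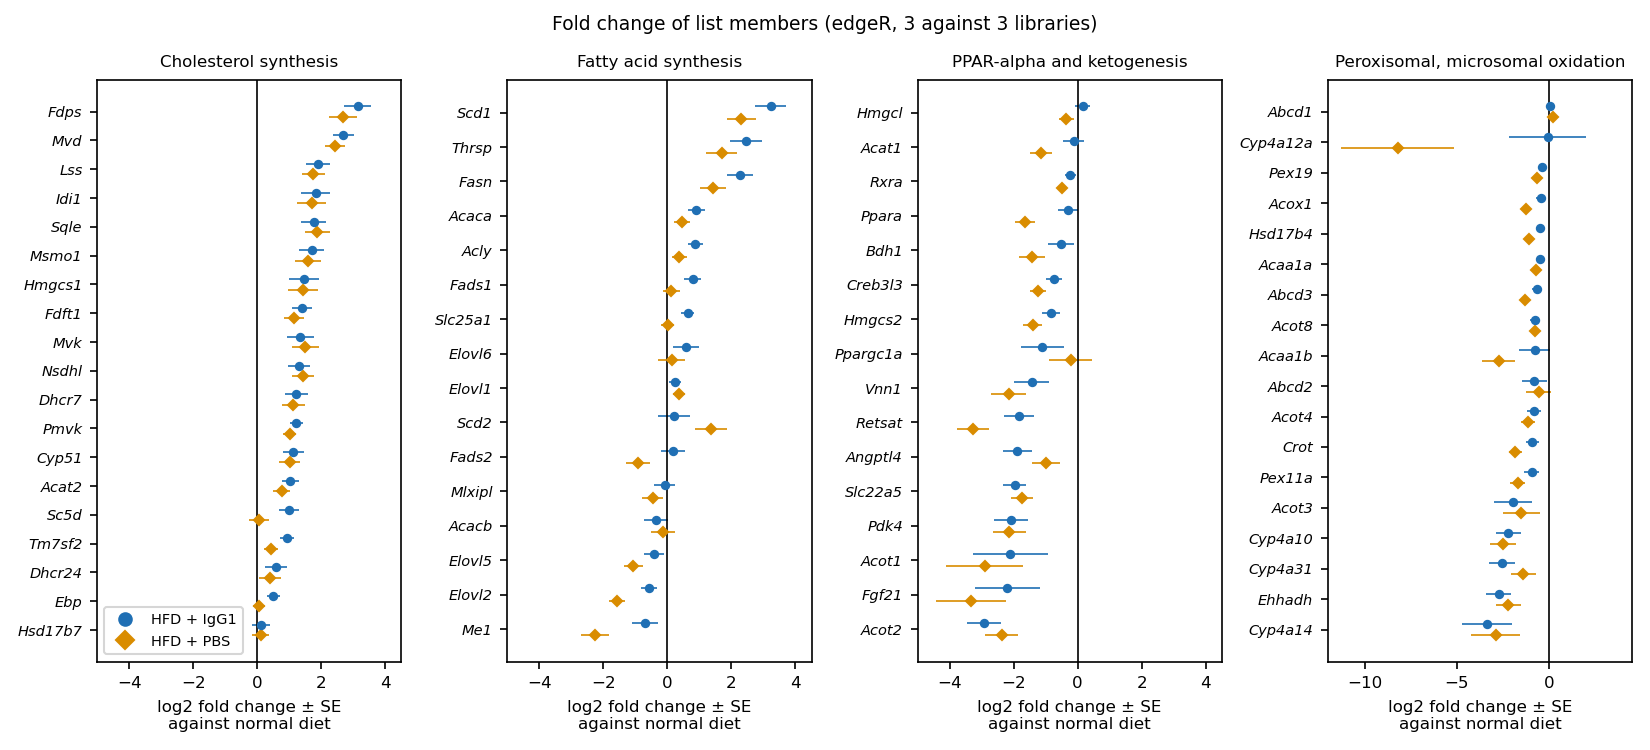
Log2 fold change against normal diet (x axis, edgeR, points, with SE as bars) of tested members of 4 lists (y axis, with 1 cholesterol synthesis gene not shown), for HFD + IgG1 (circles) and HFD + PBS (diamonds), which share the 3 normal diet libraries. The x axis of the right panel is wider than the others. All 19 cholesterol synthesis genes shown lie to the right of 0 for HFD + IgG1, and 15 of the 16 PPAR-alpha and ketogenesis genes lie to the left.

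Against the same 3 normal diet libraries, HFD + PBS had a cholesterol synthesis median of 1.30. The values of single members in HFD + IgG1 and HFD + PBS were 2.69 and 2.43 for Mvd, 3.14 and 2.68 for Fdps, 1.77 and 1.87 for Sqle, and 1.90 and 1.75 for Lss. Between the diet groups the median of the list was 0.14, with Mvd at 0.26 (SE 0.30) and Sqle at -0.09 (SE 0.38), each smaller than its SE. Without HFD + PBS replicate 6 these were -0.15, -0.01 and -0.42, and the HFD + PBS median against normal diet was 1.56. The direction of the list between the diet groups thus turned with that library. Without replicates 5 of both groups the list median was 1.33, and with each of the 9 libraries left out in turn it ran from 1.21 to 1.53.

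Gm3571, a processed pseudogene on chromosome 10 (93778660 to 93779719), was also among the 6 higher genes with the smallest p, at 20.5, 20.1 and 13.3 CPM in HFD + IgG1 against 2.69, 3.17 and 4.5 in normal diet (2.38, SE 0.41, edgeR adjusted p = 0.322). It shares 696 of its 1030 stretches of 31 bases (67.6%) with Fdps transcripts, and 27.9% of the stretches of Fdps recur in other genes. How the authors' counting split such reads is not stated, so the values of Fdps and Gm3571 are uncertain. Mvd and Pmvk share no stretch of that length with another gene.

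Promoters of SREBP-2 targets are known to pair sterol regulatory elements with the CCAAT box bound by NF-Y, so the bases before the start site are shown for 4 members: Mvd, Pmvk and Lss, which the naming rule picked, and Hmgcs1, whose promoter is a textbook case. They are 250 bases long and end at the base before the RefSeq start site (GRCm38.p6, 5′ to 3′ on the gene's strand). Capitals mark CCAAT on either strand (ATTGG on the other strand) and TCACCCCAC, a sterol regulatory element, searched on both strands.
Mvd (chr8:122443423-122443672, minus strand): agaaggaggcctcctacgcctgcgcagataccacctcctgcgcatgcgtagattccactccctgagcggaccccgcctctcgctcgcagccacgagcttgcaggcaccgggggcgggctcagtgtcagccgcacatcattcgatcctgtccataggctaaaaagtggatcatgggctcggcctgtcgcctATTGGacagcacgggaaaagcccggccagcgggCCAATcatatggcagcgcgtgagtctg
Pmvk (chr3:89454291-89454540, plus strand): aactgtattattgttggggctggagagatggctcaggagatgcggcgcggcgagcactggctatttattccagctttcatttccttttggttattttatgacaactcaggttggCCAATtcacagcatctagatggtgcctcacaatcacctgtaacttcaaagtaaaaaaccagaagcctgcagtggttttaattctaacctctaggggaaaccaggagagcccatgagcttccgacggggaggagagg
Lss (chr10:76531355-76531604, plus strand): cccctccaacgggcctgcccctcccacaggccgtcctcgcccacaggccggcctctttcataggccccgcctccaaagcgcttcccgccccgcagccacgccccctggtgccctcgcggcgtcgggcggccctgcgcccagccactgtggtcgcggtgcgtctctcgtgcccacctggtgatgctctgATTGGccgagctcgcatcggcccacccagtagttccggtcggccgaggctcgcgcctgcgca
Hmgcs1 (chr13:119690101-119690350, plus strand): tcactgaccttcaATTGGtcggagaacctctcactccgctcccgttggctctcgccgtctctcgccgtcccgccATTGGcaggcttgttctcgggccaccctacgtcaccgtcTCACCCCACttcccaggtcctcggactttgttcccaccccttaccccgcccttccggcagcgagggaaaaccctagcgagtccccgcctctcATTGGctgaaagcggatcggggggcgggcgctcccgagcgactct

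Mvd held 2 CCAAT boxes, 56 and 23 bases before its start site, Lss 1 at 58, Pmvk 1 at 132, and Hmgcs1 3 at 233, 172 and 41, with TCACCCCAC at 129. In windows of 300 bases, 250 before to 50 after the start site, 14 of the 15 cholesterol synthesis genes with a RefSeq entry held CCAAT (93.3%), against 42.6% of 10782 tested genes with an entry. A gene counted if any of its windows held the letters. Counted by single window, a different unit, the share was 37.4% of all 32851 windows. By gene, it was 69.2% for fatty acid synthesis (9 of 13), 37.5% for mitochondrial fatty acid oxidation (6 of 16) and 36.4% for PPAR-alpha and ketogenesis (4 of 11). TCACCCCAC was found in 1 of the 15, Hmgcs1, and in 0.733% of tested genes. A match is a stretch of letters and not a measured binding site.

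Regulators of the pathway differed less evenly: over 15 genes of SREBP control and LDL uptake the median was -0.01 (-0.13 without replicates 5), with 6 higher and 3 lower without overlap. Srebf2, which encodes SREBP-2, was at 119, 125 and 98.1 CPM in HFD + IgG1 against 82.1, 94 and 64.3 in normal diet (0.51, SE 0.20, edgeR adjusted p = 0.66). Insig1, which retains SREBP in the endoplasmic reticulum when sterols are plentiful, was at 570.3, 279.9 and 430.3 CPM in HFD + IgG1 against 151, 114 and 112 in normal diet, a log2 fold change of 1.77 with an SE of 0.35 (edgeR adjusted p = 0.414, DESeq2 adjusted p = 0.000392). In both genes the lowest antibody liver lay above the highest control. Insig1 was at 0.84 in HFD + PBS against normal diet, and the difference between the diet groups was 0.93 (edgeR unadjusted p = 0.0233). That difference was 0.64 without HFD + PBS replicate 6 (edgeR unadjusted p = 0.0677) and 0.33 without all 3 libraries that went against their labels.

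Several lipogenic genes, among them known targets of SREBP-1c and LXR, also stood above the controls. Of 16 genes of fatty acid synthesis and desaturation, 6 were higher and 1 lower without overlap, 7 and 1 had an unadjusted p under 0.05, 3 were called higher by DESeq2 and the median was 0.41 (0.42 without replicates 5 of both groups). Scd1, stearoyl-CoA desaturase (ENSMUSG00000037071, chromosome 19, 44394455 to 44407879), was at 10195, 4805 and 6242 CPM in HFD + IgG1 against 876, 316 and 1084 in normal diet, a log2 fold change of 3.22 with an SE of 0.47 (edgeR adjusted p = 0.236, DESeq2 adjusted p = 3.6e-11). Fasn, fatty acid synthase, was at 745, 316 and 381 CPM in HFD + IgG1 against 98.7, 114 and 88.6 in normal diet, a log2 fold change of 2.26 with an SE of 0.41 (edgeR adjusted p = 0.362, DESeq2 adjusted p = 2.14e-05). Thrsp, a partner of lipogenic enzymes, was at 90.3, 28.2 and 44.4 CPM in HFD + IgG1 against 6.78, 9.13 and 13.9 in normal diet, a log2 fold change of 2.45 with an SE of 0.49 (edgeR adjusted p = 0.414, DESeq2 adjusted p = 6.62e-05). The library labelled HFD + IgG1 replicate 5 was the highest and replicate 6 the lowest in all 3, and each lay above the controls. Without replicates 5 of both groups Scd1 was at 2.48, Fasn at 1.88 and Thrsp at 1.80. In HFD + PBS against normal diet the same genes were at 2.31, 1.43 and 1.69. Between the diet groups they differed by 0.91, 0.83 and 0.76. Those differences were 0.62, 0.02 and -0.15 without the 3 libraries that went against their labels.

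Srebf1, the gene of SREBP-1, was at 311, 102 and 213 CPM in HFD + IgG1 against 49, 64.6 and 52.5 in normal diet, a log2 fold change of 1.92 with an SE of 0.37 (edgeR adjusted p = 0.414, DESeq2 adjusted p = 0.000152). Its HFD + PBS livers were at 97.2, 74 and 54.8 CPM, and the difference between the diet groups was 1.47 (edgeR unadjusted p = 0.00299), or 0.83 without the 3 libraries. Acly, which makes cytosolic acetyl-CoA, was at 345, 198 and 211 CPM in HFD + IgG1 against 128, 130.3 and 155 in normal diet (0.87, SE 0.24, 0.52 without replicates 5). In HFD + PBS Acly was at 0.37 against normal diet. Its difference between the diet groups was 0.50, or 0.01 without the 3 libraries. Lipogenic members did not all stand higher. Me1, malic enzyme, chosen after its values were seen, was at 80.5, 24.1 and 70 CPM in HFD + IgG1 against 92.1, 69.6 and 122 in normal diet, overlapping the controls, against 16.3, 18 and 25 in HFD + PBS. Of triglyceride assembly (13 genes, median 0.07, and -0.11 without replicates 5), Dgat2, the last acyltransferase, was at 594, 361 and 503 CPM in HFD + IgG1 against 273, 304 and 277 in normal diet (0.77, SE 0.20, DESeq2 adjusted p = 0.0195), while Lpin2, a phosphatidate phosphatase, was at 131, 209 and 81.1 CPM in HFD + IgG1 against 457, 248 and 332 in normal diet (-1.30, SE 0.38).

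Ppp1r3b and Pklr, genes of glycogen storage and glycolysis, stood above the controls and above HFD + PBS. Ppp1r3b, the subunit that brings protein phosphatase 1 to glycogen (ENSMUSG00000046794, chromosome 8, 35375739 to 35388139), was at 592, 186 and 572 CPM in HFD + IgG1 against 55.1, 72.6 and 80.5 in normal diet, a log2 fold change of 2.70 with an SE of 0.42 (edgeR adjusted p = 0.253, DESeq2 adjusted p = 2.13e-08). HFD + PBS livers were at 120.3, 70.2 and 94.1 CPM, and the difference between the diet groups was 2.25 (SE 0.41, edgeR unadjusted p = 0.000374, adjusted p = 0.14). Pklr, liver pyruvate kinase, was at 129, 64.9 and 80.7 CPM in HFD + IgG1 against 53.9, 50.4 and 51.8 in normal diet (0.81, SE 0.24), against 39.2, 53.3 and 39.2 in HFD + PBS (difference 1.06, edgeR unadjusted p = 0.00135, or 0.61 without the 3 libraries that went against their labels). All 3 antibody livers were above all 3 controls in both genes, and replicate 6 was the lowest each time. Over the 20 genes of glucose metabolism and insulin signalling the median was -0.16 (-0.20 without replicates 5, and 0.01 without HFD + IgG1 replicate 6), with 3 higher and 4 lower without overlap.

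Txnip, an inhibitor of thioredoxin and of glucose uptake (ENSMUSG00000038393, chromosome 3, 96557957 to 96561883), had the smallest p among the lower genes after Nceh1. It was at 70, 84 and 52.4 CPM in HFD + IgG1 against 162, 160.4 and 284 in normal diet, a log2 fold change of -1.55 with an SE of 0.26 (edgeR adjusted p = 0.253, DESeq2 adjusted p = 2.58e-05). Its HFD + PBS livers lay between, at 88.3, 106 and 95.6. Pdk4, the kinase that shuts pyruvate out of the citric acid cycle in fasting, was at 27, 12.3 and 11.8 CPM in HFD + IgG1 against 89, 29.4 and 96.8 in normal diet (-2.08, SE 0.53, DESeq2 adjusted p = 0.0053) and was named after its values were seen. Every antibody liver was below every control in both genes.

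**Figure D2:**
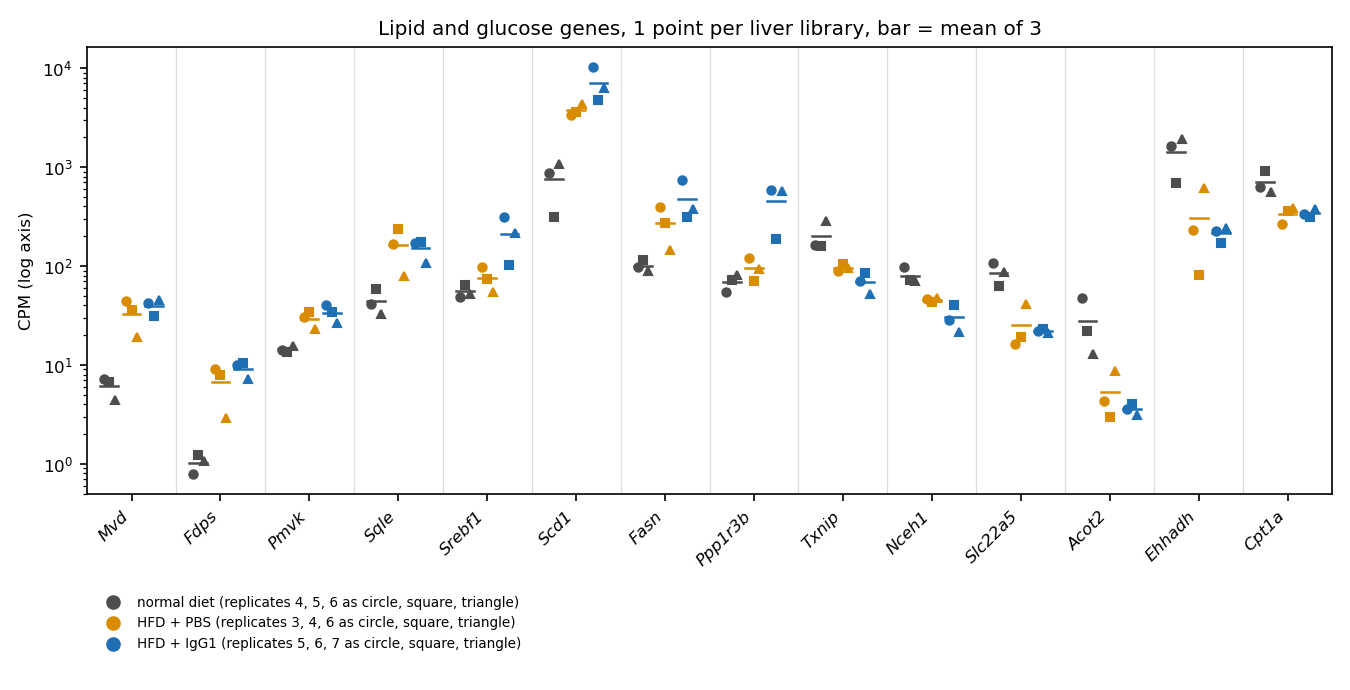
CPM (y axis, log scale) of 14 genes (x axis) in each liver library, with 1 point per library, the 3 groups in columns and a bar at the mean of 3. Ppp1r3b, Srebf1, Mvd, Fdps, Pmvk, Scd1 and Fasn have their highest means in HFD + IgG1. Of these, Mvd, Fdps, Pmvk, Scd1 and Fasn are high in both diet groups, and Slc22a5, Acot2, Ehhadh and Cpt1a are low in both.

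Genes of fatty acid breakdown mostly stood below the normal diet level. In the PPAR-alpha, ketogenesis and fasting list 15 of 16 log2 fold changes were negative, 11 without overlap, 8 with an unadjusted p under 0.05 and 5 called by DESeq2. The list stood at -1.17, -1.57 and -1.12 in HFD + IgG1 replicates 5, 6 and 7, and at 0.19, -0.24 and 0.05 in the controls. Slc22a5, the carnitine transporter (ENSMUSG00000018900, chromosome 11, 53864542 to 53891660), was at 21.8, 23.1 and 20.8 CPM in HFD + IgG1 against 108, 62.6 and 87.6 in normal diet, a log2 fold change of -1.97 with an SE of 0.35 (edgeR adjusted p = 0.339, DESeq2 adjusted p = 2.58e-05). Acot2, a mitochondrial acyl-CoA thioesterase, was at 3.57, 4.06 and 3.14 CPM in HFD + IgG1 against 47.7, 22 and 12.8 in normal diet, a log2 fold change of -2.93 with an SE of 0.54 (edgeR adjusted p = 0.362, DESeq2 adjusted p = 1.17e-05). Angptl4, a PPAR target that inhibits lipoprotein lipase, was at 23.6, 63.5 and 37.6 CPM in HFD + IgG1 against 142, 113 and 204 in normal diet, a log2 fold change of -1.88 with an SE of 0.46 (edgeR adjusted p = 0.478, DESeq2 adjusted p = 0.00577). In each gene the antibody livers lay below the controls without overlap. Of the 31-base stretches, Slc22a5 shares 35.8% with Slc22a21 and Acot2 shares 29.9% with Acot1, so part of their reads may belong to those genes.

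Ppara, the receptor itself, overlapped the controls: it was at 133, 54.6 and 98.1 CPM in HFD + IgG1 against 102, 150.4 and 95.6 in normal diet (-0.29, SE 0.31, edgeR adjusted p = 0.847). In HFD + PBS it was at 39.3, 29.7 and 41.8, a log2 fold change of -1.65, and the difference between the diet groups was 1.37 (SE 0.31, edgeR unadjusted p = 0.00161, adjusted p = 0.14). Retsat, retinol saturase, stood between the other groups, at 292, 136 and 196 CPM in HFD + IgG1 against 865, 464 and 868 in normal diet (-1.82, SE 0.47) and 55.4, 41.9 and 132 in HFD + PBS. Its antibody values lay above the HFD + PBS values in every liver.

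Of peroxisomal and microsomal oxidation, 17 of 18 genes were negative, 11 without overlap, 11 with an unadjusted p under 0.05 and 3 called by DESeq2. Ehhadh, the peroxisomal bifunctional enzyme (ENSMUSG00000022853, chromosome 16, 21761287 to 21787807), was at 223, 172 and 245 CPM in HFD + IgG1 against 1634, 697 and 1943 in normal diet, a log2 fold change of -2.74 with an SE of 0.68 (edgeR adjusted p = 0.478, DESeq2 adjusted p = 0.00068). Cyp4a10 and Cyp4a31, omega-hydroxylases of fatty acids, were at -2.21 (SE 0.69) and -2.56 (SE 0.71), and 44.9% and 32.0% of their stretches recur in other genes, so reads of this family may be shared among its members. Acot8, a peroxisomal thioesterase, was at -0.78 (SE 0.24). The mitochondrial list had a smaller median, -0.44, with 14 of 18 negative, 9 without overlap and 1 called by DESeq2. That gene was Cpt1a, which admits fatty acids to mitochondria, at 339, 311 and 376 CPM in HFD + IgG1 against 634, 909.7 and 554 in normal diet, a log2 fold change of -1.03 with an SE of 0.23 (edgeR adjusted p = 0.426, DESeq2 adjusted p = 0.00272). Eci2, Hadhb and Etfdh, later steps of the same route, were at -0.81, -0.62 and -0.59, again without overlap, while 4 of the 18 genes were positive. The mitochondrial list as a whole overlapped, at -0.23, -0.74 and -0.13 in HFD + IgG1 and -0.03, -0.14 and 0.17 in normal diet. With 1 library left out its median ran from -0.59 (without HFD + IgG1 replicate 7) to -0.30 (without HFD + IgG1 replicate 6).

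Against normal diet, the HFD + PBS medians of these 3 lists were -1.54 for PPAR-alpha and ketogenesis, -1.35 for peroxisomal and -0.92 for mitochondrial oxidation, where those of HFD + IgG1 were -1.27, -0.80 and -0.44. Between the diet groups they differed by 0.55, 0.28 and 0.52. Without HFD + PBS replicate 6 those differences were 0.91, 0.88 and 0.63. Cpt1a (-1.03 and -1.05) and Slc22a5 (-1.97 and -1.75) stood below the controls in both diet groups, with differences of 0.02 (SE 0.23) and -0.22 (SE 0.34) between them, or 0.14 and 0.31 without HFD + PBS replicate 6. Without replicates 5 of both groups the 3 medians against normal diet were -1.36, -0.92 and -0.60.

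**Figure D3:**
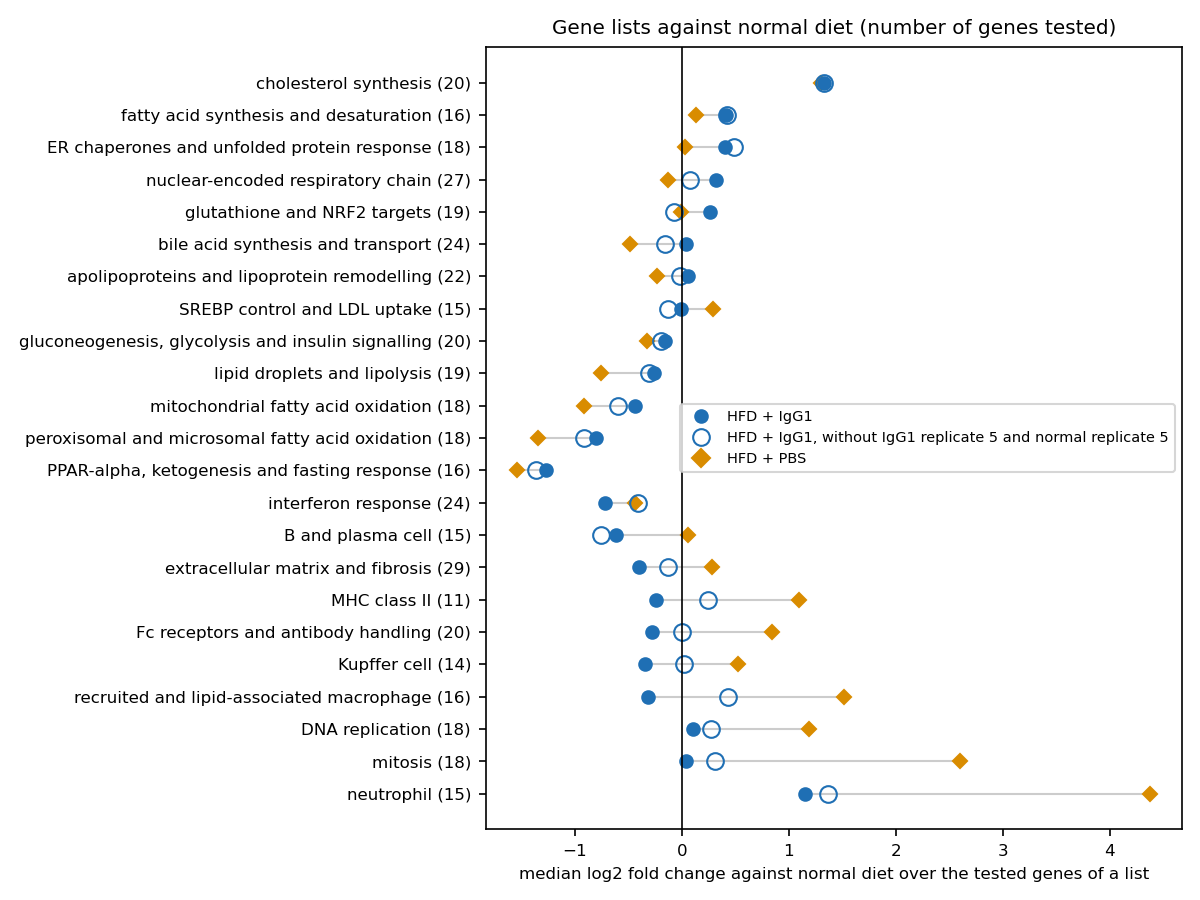
Median log2 fold change against normal diet (x axis) over the tested genes of each list (y axis, number of genes in brackets), for HFD + IgG1 (filled circles), the same without replicates 5 (open circles) and HFD + PBS (diamonds). The 2 diet groups lie close for cholesterol synthesis, at 1.33 and 1.30, and far apart for neutrophil (1.15 and 4.38) and mitosis (0.04 and 2.60) genes, whose HFD + IgG1 medians were -2.87 and -1.10 without HFD + IgG1 replicate 6.

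Lipid storage and uptake genes were mixed. Plin2, the main coat protein of hepatocyte lipid droplets, was at 367, 287 and 345 CPM in HFD + IgG1 against 1254, 721 and 731 in normal diet (-1.44, SE 0.40, DESeq2 adjusted p = 0.0316), and Plin3, another coat protein, was at 39.7, 43.8 and 44 CPM in HFD + IgG1 against 35.2, 32.5 and 26.5 in normal diet (0.44, SE 0.14). Fitm2, which helps droplets bud, was at -0.64 (SE 0.25) and the triglyceride lipase Pnpla2 at -0.52 (SE 0.22). Over the 19 genes of this list the median was -0.26 (-0.31 without replicates 5, and -0.52 without HFD + IgG1 replicate 7), with 2 higher and 6 lower without overlap. The fatty acid transporter genes Slc27a1 and Slc27a2 were lower in every antibody liver, at 11, 9.46 and 10.7 against 17.7, 21.2 and 19.8 CPM (-0.92, DESeq2 adjusted p = 0.00134) and 1000.0, 865 and 1065 against 1535, 1618 and 1863 (-0.78, DESeq2 adjusted p = 0.0316). Cd36, a fatty acid receptor, overlapped the controls (-0.47, SE 0.40), as did Pparg (-0.26, SE 0.22). Cidec, which fuses droplets, was below the controls in all 3 antibody livers but at 1.78, 1.12 and 1.99 CPM (-0.69, SE 0.37). Against normal diet, HFD + PBS was at -1.70 for Plin2, 0.61 for Plin3, -1.55 for Fitm2 and 0.19 for Pnpla2. The HFD + PBS median of the 19 genes was -0.76. Slc27a1 and Slc27a2 were at -0.89 and -1.41 in HFD + PBS, Cd36 at 0.60, Pparg at -0.34 and Cidec at -1.15.

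Nceh1, the neutral cholesterol ester hydrolase that frees stored cholesterol (ENSMUSG00000027698, chromosome 3, 27182965 to 27284608), had the smallest p of the lower genes. It was at 28.6, 40.7 and 21.6 CPM in HFD + IgG1 against 97.1, 71.9 and 69.8 in normal diet, a log2 fold change of -1.39 with an SE of 0.23 (edgeR adjusted p = 0.253, DESeq2 adjusted p = 9.26e-05). Its HFD + PBS livers lay between, at 46.5, 43.1 and 47.3 CPM, and the difference between the diet groups was -0.59 (edgeR unadjusted p = 0.0256, and 0.0603 without HFD + PBS replicate 6). Every control liver was above every liver of either diet group.

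The 24 bile acid genes centred on 0.04 (-0.16 without replicates 5), with 4 higher and 2 lower without overlap. Cyp7a1, the rate-limiting enzyme, was at 69.1, 56.5 and 143 CPM in HFD + IgG1 against 4.15, 23.5 and 39.6 in normal diet (2.0, SE 0.75, edgeR adjusted p = 0.66). Cyp2c70, which makes muricholic acids, was at 681, 878 and 414 CPM in HFD + IgG1 against 261, 329.6 and 161 in normal diet, a log2 fold change of 1.39 with an SE of 0.34 (edgeR adjusted p = 0.47, DESeq2 adjusted p = 0.0104). Akr1d1, the 5-beta-reductase of bile acid synthesis, was at 245, 195 and 219 CPM in HFD + IgG1 against 112, 153 and 139 in normal diet, a log2 fold change of 0.70 with an SE of 0.18 (edgeR adjusted p = 0.478, DESeq2 adjusted p = 0.0249). These 3 lay above the controls in every antibody liver. In HFD + PBS against normal diet they were at 0.77 (Cyp7a1), 1.59 (Cyp2c70) and 0.16 (Akr1d1). Abcb4, the phospholipid exporter of the bile canaliculus, was at 218, 321 and 267 CPM in HFD + IgG1 against 639, 490.0 and 592 in normal diet (-1.09, SE 0.30, DESeq2 adjusted p = 0.0468), below every control. In HFD + PBS against normal diet it was likewise at -1.09. Cyp8b1, which makes cholic acid, was at 256, 46.6 and 363 CPM in HFD + IgG1 against 403, 342 and 716 in normal diet (-1.13, SE 0.64), with replicate 6 lowest and replicate 7 within the range of the controls. In HFD + PBS it was at 9.4, 17.8 and 13, and the difference between the diet groups was 4.05 (SE 0.71, edgeR unadjusted p = 0.000373, adjusted p = 0.14).

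Apolipoprotein genes centred near 0 (median 0.06 over 22, and -0.02 without replicates 5). Apoa5, which promotes triglyceride clearance, was at 599, 414 and 522 CPM in HFD + IgG1 against 715, 909.6 and 1108 in normal diet (-0.83, SE 0.28). Apoa4 was at 29.8, 92.5 and 33 CPM in HFD + IgG1 against 64.7, 539.9 and 138 in normal diet (-2.26, SE 0.81), and the difference was -0.96 without the library labelled normal diet replicate 5 and -0.68 without replicates 5 of both groups. Of the 19 glutathione and NRF2 target genes 5 were higher without overlap and 2 were called higher by DESeq2, Gsta3 and Gstm3. Their median was 0.26, or -0.07 without replicates 5. With 1 library left out it was lowest, -0.03, when normal diet replicate 5 was absent and highest, 0.44, when HFD + IgG1 replicate 6 was absent. Gsta3, a glutathione transferase, was at 1731, 793 and 1574 CPM in HFD + IgG1 against 609.8, 392 and 769 in normal diet (DESeq2 adjusted p = 0.0312) and at 638, 582 and 534 in HFD + PBS. Gstm3 was at 37.5, 88.2 and 39.1 CPM in HFD + IgG1 against 5.62, 11.7 and 15.2 in normal diet, and 37.7% of its stretches recur in other genes. Its HFD + PBS mean was higher still, at 149.3 CPM (SD 123.4), with a difference of -1.44 between HFD + IgG1 and HFD + PBS.

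The remaining lower genes with the smallest p had no list in common. Dnmbp, a scaffold for dynamin and a Cdc42 exchange factor (ENSMUSG00000025195, chromosome 19, 43846821 to 43940191), was at 29.3, 26.1 and 24.1 CPM in HFD + IgG1 against 56.2, 44.8 and 70 in normal diet, a log2 fold change of -1.10 with an SE of 0.19 (edgeR adjusted p = 0.322, DESeq2 adjusted p = 0.00038). The long noncoding RNA 3930402G23Rik (ENSMUSG00000038917, chromosome 8, 10924427 to 10928696) was at 0.571, 1.12 and 1.57 CPM in HFD + IgG1 against 9.89, 6.68 and 8.4 in normal diet, a log2 fold change of -2.91 with an SE of 0.52 (edgeR adjusted p = 0.339, DESeq2 adjusted p = 2.58e-05). HFD + PBS livers had 1.63, 6 and 5.72 CPM of it, and the difference between the diet groups was -2.01 (edgeR unadjusted p = 0.003). Smad9, a transcription factor of BMP signalling, was at 4.21, 3.69 and 3.32 CPM in HFD + IgG1 against 8.98, 9.02 and 15.7 in normal diet (-1.59, SE 0.30, DESeq2 adjusted p = 0.000846) and at 2.34, 1.89 and 1.39 in HFD + PBS. The antibody livers thus lay between the other groups in Smad9, without overlap with either. Over 22 BMP and iron genes the median was -0.13 (-0.12 without replicates 5) and 1 gene, Smad9, was called by DESeq2.

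Markers of neutrophils, Kupffer cells, recruited macrophages and mitosis did not separate the antibody group from the controls: replicate 6 was high and replicates 5 and 7 were low. In bulk RNA, fewer cells of a type and less RNA per cell cannot be told apart. Neutrophil markers stood at -2.83, 2.75 and -1.98 in the antibody livers, at 1.47, -0.03 and -1.44 in the controls and at 5.04, 2.45 and 3.91 in HFD + PBS replicates 3, 4 and 6. Their median against normal diet was 1.15 (1.37 without replicates 5, -0.64 with limma-voom). It ran from -2.87 (without HFD + IgG1 replicate 6) to 2.08 (without normal diet replicate 4) with 1 library left out, so its direction rested on HFD + IgG1 replicate 6. S100a8, a neutrophil calgranulin, was at 3, 184 and 4.11 CPM in HFD + IgG1 against 48.1, 16.6 and 7.8 in normal diet and at 1269.7, 136 and 428 in HFD + PBS. Its values in replicates 5 and 7 were thus below every control and that in replicate 6 above every control. Kupffer cell markers stood at -1.15, 0.44 and -0.81 against -0.14, 0.20 and -0.06, and recruited and lipid-associated macrophage markers at -1.20, 0.76 and -0.79 against 0.20, 0.65 and -0.84. Trem2, a lipid receptor of macrophages, was at 0.999, 5.34 and 1.99 CPM in HFD + IgG1 against 3.79, 7.79 and 1.74 in normal diet, and at 17.8, 10.4 and 16.7 in HFD + PBS. Mitosis genes stood at -0.66, 1.17 and -0.91 against 0.23, -0.21 and -0.02. With 1 library left out the medians ran from -1.10 (without HFD + IgG1 replicate 6) to 0.53 (without HFD + IgG1 replicate 7) for mitosis (0.04 with all libraries), from -0.97 (without HFD + IgG1 replicate 6) to -0.07 (without HFD + IgG1 replicate 5) for Kupffer cells (-0.35) and from -1.14 (without HFD + IgG1 replicate 6) to 0.10 (without HFD + IgG1 replicate 5) for recruited macrophages (-0.32). Without replicates 5 of both groups they were 0.31, 0.02 and 0.43. In these 4 lists no gene lay above, and none below, all 3 controls in all 3 antibody livers.

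Fc receptor and antibody handling genes, through which immune cells and endothelium take up IgG, had a median of -0.28 over 20, with 19 negative and 1 lower without overlap. It was Fcgrt, whose product returns IgG to the blood, at 160.4, 131 and 152 CPM in HFD + IgG1 against 195, 189.9 and 190.2 in normal diet (-0.37, SE 0.15, edgeR adjusted p = 0.666) and at 109, 126 and 143 in HFD + PBS. Fcgr2b, the inhibitory receptor, was at 81.6, 100.3 and 63.6 CPM in HFD + IgG1 against 77.7, 97.9 and 82.3 in normal diet (-0.07, SE 0.21). The list stood at -0.90, 0.32 and -0.65 against -0.06, 0.20 and -0.13. Its median was 0 without replicates 5 of both groups and ran from -0.87 (without HFD + IgG1 replicate 6) to -0.09 (without HFD + IgG1 replicate 5) with 1 library left out. Of the acute phase, Saa1, serum amyloid A, was at 46.7, 4249 and 124 CPM in HFD + IgG1 against 4271, 8882 and 564 in normal diet, a wide spread in both groups, and shares 46.0% of its stretches with Saa2.

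**Figure D4:**
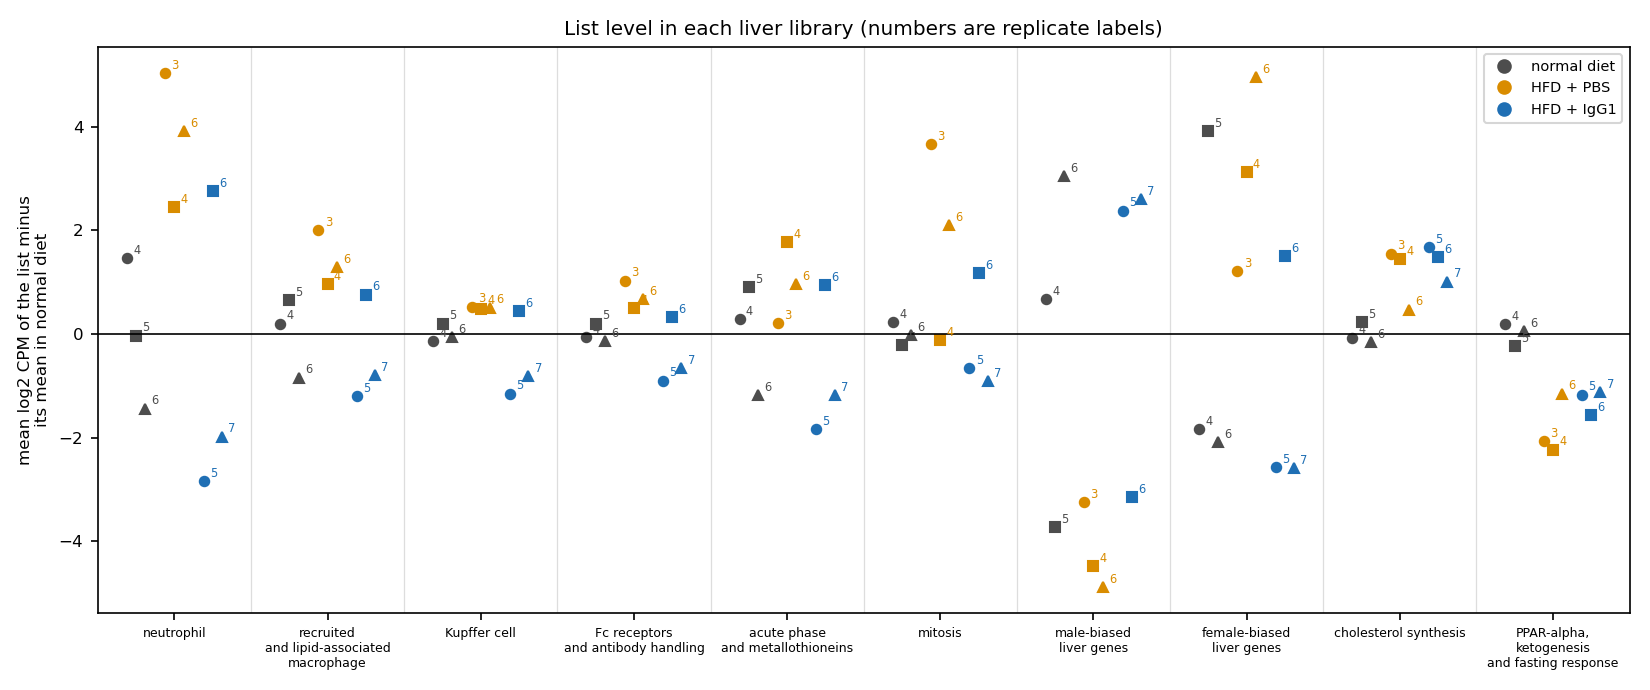
Mean log2 CPM of a list minus its mean in the normal diet livers (y axis) for 10 lists (x axis), 1 point per library with its replicate number, coloured by group. HFD + IgG1 replicate 6 lies apart from replicates 5 and 7 in the neutrophil, macrophage, Kupffer cell, mitosis and sex-biased lists, and between them in cholesterol synthesis (1.48 against 1.67 and 1.01). In PPAR-alpha it lies below them (-1.57 against -1.17 and -1.12), and all 3 lie below the controls.

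Sex-biased liver genes, set in mice by the rhythm of growth hormone, split the HFD + IgG1 libraries in the same way. The 22 male-biased genes stood at 2.38, -3.14 and 2.60 in HFD + IgG1, at 0.68, -3.73 and 3.05 in normal diet and at -3.25, -4.48 and -4.88 in HFD + PBS, the last of these being the library with no Y-linked reads. Hsd3b5, a male-specific steroid dehydrogenase, was at 257, 0.0534 and 158 CPM in HFD + IgG1 against 9.46, 0.0557 and 54.5 in normal diet, and at 0 in all 3 HFD + PBS livers. Its low values were in the libraries labelled normal diet replicate 5, which held no Y-linked reads, and HFD + IgG1 replicate 6, which held 3111. Female-biased genes stood at -2.56, 1.51 and -2.59 against -1.83, 3.91 and -2.08. Their median against normal diet was -1.30, and 1.81 without replicates 5. With 1 library left out it ran from -4.51 (without HFD + IgG1 replicate 6) to 1.39 (without normal diet replicate 5), so its direction rested on the libraries included. The part of these differences in the results above was not tested. The cholesterol synthesis and PPAR-alpha medians were 1.21 and -1.30 with a term for Y-linked reads, and 1.24 and -1.34 without HFD + IgG1 replicate 6. That term marked only normal diet replicate 5 and HFD + PBS replicate 6, which held no Y-linked reads. It left HFD + IgG1 replicate 6 and HFD + PBS replicates 3 and 4 unmarked, so it cannot adjust for the sex-biased genes.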

How the data were processed

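Total RNA of 9 livers was made into NEBNext Ultra libraries, per the labels. The authors deposited 1 table of whole-number counts, 1 row per Ensembl ID, with no normalisation. Bowtie 0.12.2 and the build mm10 are named in the submitters' processing notes. The counting program, its annotation and its use of strand are not given in these sources. Of the 54532 IDs, GENCODE M21 named 54495, and 26478 had a count in any library. Groups came from the titles and the series design. No 2 libraries of a group agreed within sampling noise, so each counted as 1 replicate.

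Counts were fitted in R 4.3.3 with edgeR 4.0.16 over all 9 libraries, with a mean per group. Genes passed filterByExpr (minimum count 10, minimum total count 15), and TMM factors were used. The quasi-likelihood fit was robust, the test (glmQLFTest) two-sided, and p-values were adjusted by Benjamini and Hochberg's method over the 14763 genes tested. The biological coefficient of variation was 0.318. An SE was derived by dividing the unshrunk log2 fold change by the square root of F, while the log2 fold changes in the text are the shrunken ones. CPM values use the TMM-scaled library total. An exact test of 3 against 3 cannot go below 0.1 and was not made. DESeq2 1.42.0 and limma 3.58.1 (voom) were alternatives, as were other factors, filters and sets of libraries, a block for the replicate number, and fits with 1 library left out. The workflow was tested on simulated data. Precision is set by the spread between livers and by depth, and the limit that 0 counts allow (3 counts) covers counting error only.

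The comparison, lists and rule for named genes were chosen with earlier results of these data known. The rule takes the 6 genes with the smallest p in each direction with at least 1 CPM on average, up to 4 genes of each list described by their p, and a fixed set that includes Apoe, Cyp7a1, Ppara and Saa1. Values of some genes that it names are not reported here. Idi1, Hmgcs1, Sc5d, Hsd17b7, Me1 and Pdk4 were added after their values were seen. Promoters came from RefSeq (GRCm38.p6). Fdps, Scd1, Sqle and Ppp1r3b had no entry.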

Additional observations from a re-analysis of the deposited data

How the results depend on the processing

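The count of genes called by edgeR was 0 and stayed 0 in 17 of 23 alternatives. It was 111 with DESeq2, 6 with no filter on low counts (Txnip, Nceh1, Dnmbp, Mvd, Pmvk and Fdps), 3 with only the 6 libraries compared (Slc22a5, Mvd and Fdps) and 3 with only the antibody library labelled IgG1 (Apoe, Ppp1r3b and Cyp2b9). With each library left out in turn it ran from 0 to 6, with 4 without HFD + PBS replicate 6 (Slc22a5, Mvd, Gm3571 and Fdps) and 6 without HFD + IgG1 replicate 6, and genes at an unadjusted p under 0.05 ran from 596 (without HFD + IgG1 replicate 7) to 2372 (without HFD + IgG1 replicate 6). It was 0 without replicates 5 of both groups (707 at an unadjusted p under 0.05) and with all 3 libraries left out that went against their labels, these and HFD + PBS replicate 6 (526). Higher genes were 54.4% of those at an unadjusted p under 0.05, 44.6% with no filter and 45% without replicates 5. The causes were not tested.

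With the replicate number as a block 0 genes were called and 396 had an unadjusted p under 0.05. The labels do not say that the numbers pair the livers, and the deviations of the same-numbered libraries of the groups compared correlated at -0.23 (number 5) and -0.48 (number 6). Fcgr2b was at 0.05 under the block.

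Of the named genes, 6 turned in direction under some alternative, and none of them had passed a test. With those 3 libraries left out, and likewise without replicates 5, Cd36 was at 0.33, Fcgr2b at 0.03, Hsd17b7 at -0.12 and Trem2 at 0.41. With a term for Y-linked reads Fcgr2b was at 0.01 and Hsd17b7 at -0.05. With only the antibody library labelled IgG1 Ppara was at 0.21 and S100a8 at -3, and S100a8 was at -0.31 with limma-voom. With each library left out, Cd36 ran from -0.81 to 0.08, Fcgr2b from -0.24 to 0.07, Hsd17b7 from 0 to 0.32, S100a8 from -2.76 to 2.41 and Trem2 from -1.55 to 0.03. Between HFD + IgG1 and HFD + PBS, Mvd and Slc22a5 turned in direction, to -0.01 and 0.31 without HFD + PBS replicate 6 and to -0.11 and 0.27 without those 3 libraries, alternatives chosen after the data were seen. Thrsp turned only without those 3 libraries, to -0.15. Depth limits genes of a few CPM, such as Fdps, Cidec and 3930402G23Rik.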

Other observations

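Endoplasmic reticulum chaperones, which fold secreted proteins, had a positive log2 fold change in all 18 of 18 genes tested (median 0.40, and 2 without overlap). Library by library the list stood at 0.15, 0.14 and 1.13 in HFD + IgG1 and 0.17, -0.12 and -0.05 in normal diet, and without HFD + IgG1 replicate 7 the median was 0.06 (0.49 without replicates 5 of both groups). Herpud1, a factor of protein export from the reticulum, was at 276, 210.0 and 909 CPM in HFD + IgG1 against 216, 133 and 118 in normal diet, and Manf, a chaperone-like secreted protein, at 95.3, 109.7 and 262 CPM in HFD + IgG1 against 80.1, 58.1 and 82.7 in normal diet. Both were highest in replicate 7. Nuclear-encoded genes of the respiratory chain were positive in 26 of 27 with a median of 0.32, but none was free of overlap, and the list stood at 0.45, -0.11 and 0.57 in HFD + IgG1 and -0.10, -0.30 and 0.40 in normal diet. That median was 0.08 without replicates 5 of both groups and ran from 0.16 (without HFD + IgG1 replicate 7) to 0.54 (without normal diet replicate 6) with 1 library left out.

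Interferon response genes were negative in 23 of 24 (median -0.72, 6 without overlap, HFD + PBS median -0.44). Leaving out normal diet replicate 5 gave -0.43, and leaving out replicates 5 of both groups gave -0.41. Antibody livers were close to each other and the controls were spread, at -0.48, -0.57 and -0.70 in HFD + IgG1 and -0.53, 0.38 and 0.16 in normal diet. Usp18, which limits interferon signalling, was at 7.06, 8.44 and 7.91 CPM in HFD + IgG1 against 7.08, 20 and 26.9 in normal diet. B and plasma cell markers were negative in 15 of 15 (median -0.62, 4 without overlap), with Cd22, an inhibitory receptor of B cells, at 3.5, 5.08 and 3.02 CPM in HFD + IgG1 against 5.25, 7.68 and 5.1 in normal diet and an HFD + PBS median of 0.06. Their median was -0.76 without replicates 5 of both groups and ran from -0.77 (without HFD + IgG1 replicate 5) to -0.31 (without HFD + IgG1 replicate 7) with 1 library left out. Library by library these markers overlapped, at -0.25, -0.66 and -1.27 in HFD + IgG1 and 0.25, 0.13 and -0.38 in normal diet. Extracellular matrix genes were negative in 27 of 29 (median -0.40, 5 without overlap, HFD + PBS median 0.28). Col1a1, 1 of those 5, was at 5.85, 10.4 and 6.28 CPM in HFD + IgG1 against 16.2, 32.3 and 12.8 in normal diet. The list as a whole overlapped, at -0.59, -0.09 and -0.62 in HFD + IgG1 and -0.07, 0.46 and -0.39 in normal diet. The list median was -0.13 without replicates 5 of both groups and ran from -0.63 (without HFD + IgG1 replicate 6) to -0.21 (without normal diet replicate 5) with 1 library left out. No gene of these 5 lists was called by edgeR or DESeq2.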
